A study of Equus caballus with 14 samples.

Results

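The genes described here handle calcium in the sarcoplasmic reticulum (SR) of muscle: ATP2A1, Atp2a2, SRI, SLC8A1, Ryr1, Casq1, Casq2, Pln, Cacna1s and Pvalb. These 10 genes were matched by name, ignoring case, to the probes of a 2-color microarray on which 12082 distinct gene names have a probe. They were chosen from earlier results of these same microarrays, in which ATP2A1, SRI and SLC8A1 were lower in diseased muscle, so their ratios against the control pool are given as a description. Where a member is said to be called against the pool, the call comes from the fit over all probes and supports nothing here. Of the 10 genes, 9 had at least 1 probe, 4 equine and 12 mouse probes in all, and 8 could be followed over the horses through 4 equine and 8 mouse probes. No probe was annotated as Cacna1s, the voltage-sensing channel of the transverse tubule. The probe of Pvalb, the soluble calcium buffer parvalbumin, and 1 of the 2 mouse probes of Ryr1 had no value on any microarray. The 2 mouse probes of Sri had 2 values each.

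The muscle samples were gluteus medius biopsies of adult Norman Cob horses with polysaccharide storage myopathy (PSSM), a glycogen storage disease in which the study's affected horses carried a GYS1 mutation on 1 or both alleles. The diseased animals are horses 5, 12, 32, 38, 42, 44 and 54, and each of these 7 was read on a dye-swapped pair of microarrays (14 in all, with PSSM muscle once in Cy3 and once in Cy5). The other channel always held a single pool made from muscles of sound adult horses of the same breed without the mutation, which counts as 1 control sample, so the spread between control horses is part of no value. Horse 5 of the labels is not in the study's own list of horses, so its mutation rests on the PSSM label alone, and genotype and histology of single horses were not used. Values are log2 ratios of PSSM muscle over the pool, averaged over the 2 microarrays of a horse, and errors are SD over 7 horses unless another n is given. The number of microarrays limits the precision. A biopsy mixes fibers and other cells, so fewer cells of a type and less RNA per cell cannot be told apart, and an array of ratios gives no levels against which the tissue label could be checked.

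Calcium is stored in the SR, leaves it when a muscle is excited and is pumped back for relaxation. In skeletal muscle the voltage sensor of the transverse tubule opens the ryanodine receptor, calsequestrins hold calcium inside the SR, and the SERCA pumps return it at the cost of ATP. Fast fibers mainly use the pump and the calsequestrin encoded by ATP2A1 and CASQ1, whereas slow fibers and the heart use the pump encoded by ATP2A2 and contain CASQ2.

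Of the 4 equine member probes, 3 were called lower in PSSM muscle and 0 higher. The background for this count is 19.9% of the 361 equine probes tested, and nothing is read from it because the same contrast chose the genes. Their median log2 ratio was -0.52, beside -0.08 over all tested equine probes. Of the 8 mouse member probes, 0 were called lower (1.36% of 13067 mouse probes were) and 0 higher (0.452% were) in limma. At an unadjusted p under 0.05 the counts were 0 lower and 2 higher, but the share of all mouse probes at that threshold was not computed. The methods' t-test also called 0 in either direction. The median of these 8 probes was 0.09, beside -0.01 over all tested mouse probes.

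ATP2A1, the calcium pump of fast fibers, had its lowest equine log2 ratio in horse 44 (-1.25), a median of -0.62 and its highest in horse 32 (-0.13). All 7 horses were below 0, and the mean was -0.68 ± 0.43, a level 1.60-fold lower than in the pool. The size differed between the microarrays of a horse, and only 4 horses had the same sign on both. With PSSM muscle in Cy5 horse 54 read -1.24 and with PSSM muscle in Cy3 it read 0.01. The mouse probe of the same gene, Atp2a1, ranged from -0.62 in horse 54 to 0.18 in horse 44, with a mean of -0.20 ± 0.25. Horse 44 was therefore the lowest by the equine probe and the highest by the mouse probe. The sign was the same with both probes in 6 of 7 horses.

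Atp2a2, the pump of slow fibers and heart, was measured by 1 mouse probe. Its log2 ratio was 1.06 in horse 12 and 0.69 in horse 5, around the pool in horse 42 (-0.04), and -0.49 in horse 44 and -1.25 in horse 38. The mean was 0.09 ± 0.77, an SD larger than in 93.6% of the tested mouse probes. In all 7 horses both microarrays gave the same sign. Pln encodes phospholamban, the small membrane protein that inhibits this pump until it is phosphorylated. Its mouse probe ranged from -0.80 in horse 44 to 0.80 in horse 32, with a median of -0.08 and a mean of -0.10 ± 0.57. Horse 38, which was lowest for Atp2a2, had 0.45 for Pln, and horse 5 had -0.60.

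SRI, or sorcin, is a calcium-binding protein that interacts with the ryanodine receptor and other calcium transporters. It was below 0 on all 14 microarrays, with horse means from -1.11 in horse 54 to -0.49 in horse 5 with a median of -0.82. Its mean was -0.81 ± 0.24, or 1.76-fold lower than in the pool. The mouse probes of Sri could not be set beside it. They gave 0.26 in horse 12 and 0.38 in horse 44 for 1 probe, and 0.00 in horse 42 and 1.01 in horse 54 for the other, each from a single microarray. In 3 of these 4 values the signal of the control pool appeared to sit at its lowest level. The study's quantitative RT-PCR, made from the same RNA preparation, found no significant change of SRI in PSSM muscle.

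RYR1, the channel through which calcium leaves the SR, was high in some horses and low in others. The equine probe gave -1.20 in horse 5, -1.38 in horse 12 and -1.03 in horse 32, against 0.69 in horse 42, 0.38 in horse 44 and 0.44 in horse 54, with -0.38 in horse 38. The mean was -0.35 ± 0.86, and its SD exceeded that of 94.2% of the tested equine probes. Horses 5, 12 and 32 were at -0.80 or lower on both of their microarrays, and horses 42 and 44 were above 0 on both. Horse 54 was not settled, with -0.44 when its muscle was in Cy5 and 1.32 when it was in Cy3. The second is a value at which the control signal may sit at its lowest level, and without it horse 54 is at -0.44 and the mean at -0.48. The mouse probe of Ryr1 that had values followed another order. It was lowest in horse 5 (-0.61), with a median of 0.26, and highest in horse 38 (1.11), and its sign matched the equine probe in 3 of 7 horses. The difference between the probes, equine minus mouse, was -0.68 ± 0.94.

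The calsequestrins hold calcium in the lumen of the SR. Casq1, the form of fast fibers, was above 0 in 6 of 7 horses, at 1.27 in horse 38 and 1.07 in horse 42, with a median of 0.66 and -0.23 in horse 5. Its mean was 0.59 ± 0.51, a ratio of 1.50. Casq2, the form of heart and slow fibers, was also above 0 in 6 of 7 horses, and it had the highest mean of the members, 0.94 ± 0.77, a ratio of 1.92. It was 1.88 in horse 44 and 1.87 in horse 5, with a median of 0.73, and -0.01 in horse 42. The order of the horses thus differed between both calsequestrins, since horse 5 was lowest for Casq1 and next to highest for Casq2. Neither probe was called in limma. Both were called higher when only microarrays with PSSM muscle in Cy3 were used. With PSSM muscle in Cy5 alone neither was called (limma, adjusted p = 0.0534 for Casq1 and 0.108 for Casq2). Both were also called higher when the 14 microarrays were fitted with the horse as a random block. That fit uses 1 correlation within a horse for all mouse probes (0.281). Where horses differ widely, as for these probes, its p can be too small. Of a list of 9 connective tissue probes (collagens, lumican, decorin and fibronectin), 8 had a value in every horse, and their mean was 2.71 in horse 44, 1.11 in horse 5, 0.88 in horse 42, 0.74 in horse 12, 0.65 in horse 38 and -0.01 in horses 32 and 54. The horses high for Casq2 (44 and 5) were thus high for this list, but horse 42, lowest for Casq2, followed them directly. In the list 1 probe (equine LUM) was called higher and 1 lower, the mouse probe of Fn1 (-1.30 ± 0.74, n = 6 horses), whereas equine FN1 had 1.05 ± 1.16. The mean of 5 macrophage probes was also highest in horse 44 (1.37) and horse 5 (0.46), with horse 42 next (0.24). An adipocyte list was lowest in horse 44 (-0.22), and a list of smooth and cardiac muscle was highest in horse 12 (0.12). The values thus do not single out connective tissue, and a part of any of these cells in the Casq2 values was not tested.

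SLC8A1, the sodium-calcium exchanger of the cell membrane, was below 0 in 6 of 7 horses with the equine probe. The values ran from -0.53 in horse 32 to -0.29 in horse 12, with a median over all horses of -0.44, and only horse 5 was above 0 (0.06). The mean was -0.37 ± 0.21, or 1.29-fold lower. The call of this probe ended when horse 32, 38, 42 or 54 was left out and when microarrays were centered on their equine probes. Both mouse probes of Slc8a1 lay around the pool. The probe at position 170 had a mean of -0.02 ± 0.38 and the probe at position 3270 a mean of 0.09 ± 0.20. The sign of the equine probe was found in 4 of 7 horses with the first and in 1 of 7 with the second.

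**Figure D1:**
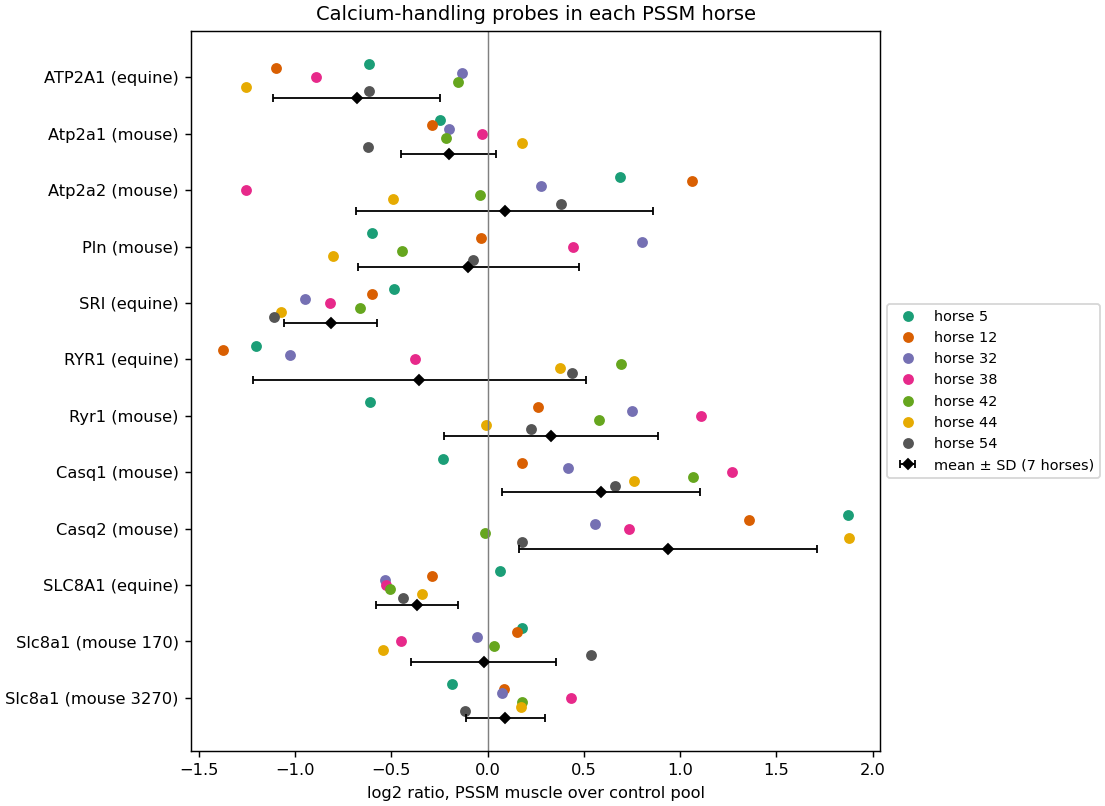
Log2 ratio of PSSM muscle over the control pool (horizontal axis) for the 12 member probes that could be followed (rows, with the kind of probe in parentheses), 1 colored point per horse and a black diamond for the mean with SD over 7 horses. SRI lies below 0 in every horse, RYR1 spreads from -1.38 to 0.69, and Atp2a2 from -1.25 to 1.06.

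Which of these genes differed between horses was tested with limma on single microarrays, with a term for the dye and an F test over 7 horses. This comparison was chosen after the values had been seen. It asks whether horses differ by more than the dye-swapped microarrays of a horse do. Since each horse was hybridized as its own pair of microarrays, the animal and its pair cannot be told apart. The test was passed by 1 of 4 equine member probes, beside 30.1% of the 299 equine probes tested in this way, and by 5 of 8 mouse member probes, beside 12.7% of 5890 mouse probes. The members that passed were RYR1 (adjusted p = 0.00394), Atp2a2 (adjusted p = 0.00128), Casq2 (adjusted p = 0.00131), Pln (adjusted p = 0.0059), Casq1 (adjusted p = 0.0263) and mouse Ryr1 (adjusted p = 0.0367). Horses spanned 2.31 for Atp2a2 and 1.89 for Casq2, and the residual SD of single microarrays was 0.22 and 0.23 for them. ATP2A1 did not pass (adjusted p = 0.242). It had a range of 1.12 between horses and a residual SD of 0.55. SRI spanned 0.62 (adjusted p = 0.402) and equine SLC8A1 0.59 (adjusted p = 0.672), so that the 3 equine members that were lower in PSSM muscle were not shown to differ between horses. Without a term for the dye only Atp2a2 passed. The calls of RYR1, Atp2a2, Casq2 and Pln were made without any single horse, whereas Casq1 did not pass without horse 5, 38 or 42, and mouse Ryr1 did not pass without horse 5, 32, 38, 42 or 44.

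The horses that stood at the ends for Atp2a2 also stood at the ends for genes of slow fibers. The correlations given next were not among the planned tests, so their p-values are a description. The slow-fiber list (Myh7, Tnnt1, Tnni1, Tnnc1, Myl2, Myl3 and Tpm3, contractile proteins) had a mean log2 ratio of 0.73 in horse 12 and 0.45 in horse 5, and -1.58 in horse 38. Of its 7 probes, 6 were lowest in horse 38 and 6 were highest in horse 12, Tnni1 being the exception, and 5 of the 5 that could be tested differed between horses. Over 7 horses Atp2a2 and the mean of this list had an r of 0.948 (exact permutation test, two-sided, p = 0.000794, adjusted p = 0.019 over 24 relations) and a rho of 0.929 (exact permutation p = 0.00675, adjusted p = 0.081). Without horses 38 and 12 the r was 0.815. With Atp2a2 and the list taken from different microarrays the r was 0.85 (list with PSSM muscle in Cy5, Atp2a2 with it in Cy3) and 0.956 (the reverse).

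For Casq1 the coefficients were negative and did not pass the adjustment. Its r with the slow-fiber list was -0.834 (exact permutation test, two-sided, p = 0.0151, adjusted p = 0.181) and its rho was -0.964 (exact permutation p = 0.00278, adjusted p = 0.0667), with an r of -0.95 without horses 38 and 12. Of the 24 relations, between 12 member probes and the slow-fiber and fast-fiber lists, that of Atp2a2 was the only one with an adjusted p under 0.05, and it had it by r and not by rho. Casq2, the form of heart and slow fibers, had an r of only 0.293 with the slow-fiber list (exact permutation p = 0.58, adjusted p = 0.716) and a rho of 0.321. Mouse Slc8a1 at position 3270 had an r of -0.765 with that list (exact permutation p = 0.0452, adjusted p = 0.362). The fast-fiber list (Tnnc2, Tnnt3, Actn3 and Myl1 had a value in every horse) ranged less, between -0.46 in horse 54 and 0.29 in horse 32. Its r with equine ATP2A1 was 0.649 (exact permutation test, two-sided, p = 0.124, adjusted p = 0.504; rho 0.679, exact permutation p = 0.11, adjusted p = 0.514) and -0.01 without horses 32 and 42. Neither list had a probe called lower or higher in PSSM muscle. What share of the horse differences in Atp2a2 and Casq1 goes with fiber type was not tested.

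**Figure D2:**
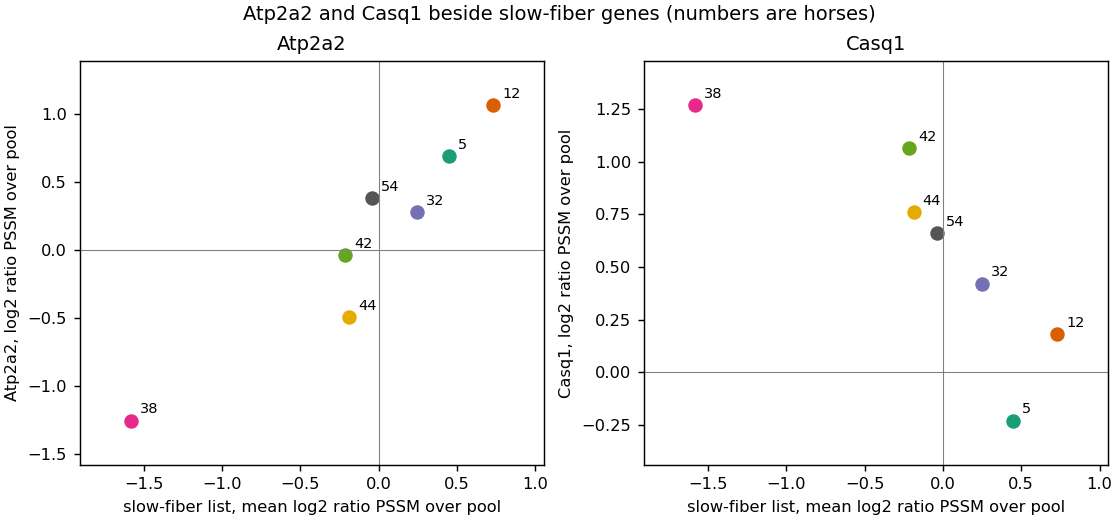
Log2 ratio of Atp2a2 (left) and Casq1 (right) against the mean log2 ratio of 7 slow-fiber probes, all PSSM muscle over control pool, 1 numbered point per horse. Horse 38 has the lowest slow-fiber mean (-1.58), the lowest Atp2a2 (-1.25) and the highest Casq1 (1.27).

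The dye orientation was compared next, as PSSM muscle in Cy5 minus PSSM muscle in Cy3 within each horse, a difference that had no part in the choice of the genes. A dye effect passed in limma for 2 of 4 equine member probes, beside 55% of 342 equine probes tested, and for 3 of 8 mouse member probes, beside 38.5% of 9238. Casq2 averaged 0.57 ± 0.71 with PSSM muscle in Cy5 and 1.30 ± 0.86 with it in Cy3, a difference of -0.73 ± 0.32 that had the same sign in 7 of 7 horses (adjusted p = 0.00225). Pln averaged -0.34 ± 0.48 in Cy5 and 0.13 ± 0.68 in Cy3 (difference -0.47 ± 0.28, 7 of 7 horses, adjusted p = 0.013), so that its mean changed sign with the dye. Mouse Atp2a1 did so too. It averaged 0.08 ± 0.42 in Cy5 and -0.48 ± 0.17 in Cy3 (difference 0.56 ± 0.42, 6 of 7 horses, adjusted p = 0.0156), and it was called lower in PSSM muscle from the Cy3 microarrays by themselves.

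Among the equine members SRI and RYR1 had a dye effect, in opposite directions. SRI averaged -0.57 ± 0.19 in Cy5 and -1.06 ± 0.42 in Cy3 (difference 0.49 ± 0.45, 6 of 7 horses, adjusted p = 0.023). It was lower than the pool in either orientation. RYR1 averaged -0.64 ± 0.86 in Cy5 and -0.07 ± 0.98 in Cy3 (difference -0.57 ± 0.66, 6 of 7 horses, adjusted p = 0.0396). The call of a dye effect ended for RYR1 without horse 12, 42, 44 or 54 and for SRI without horse 32, 42 or 44. ATP2A1 (difference 0.16 ± 0.77, adjusted p = 0.559) and equine SLC8A1 (difference 0.23 ± 0.56, adjusted p = 0.298) did not pass, but their spread between orientations was wide. From the Cy5 microarrays alone SRI was the only equine member called lower, whereas ATP2A1, SRI and SLC8A1 were called from the Cy3 microarrays alone.

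**Figure D3:**
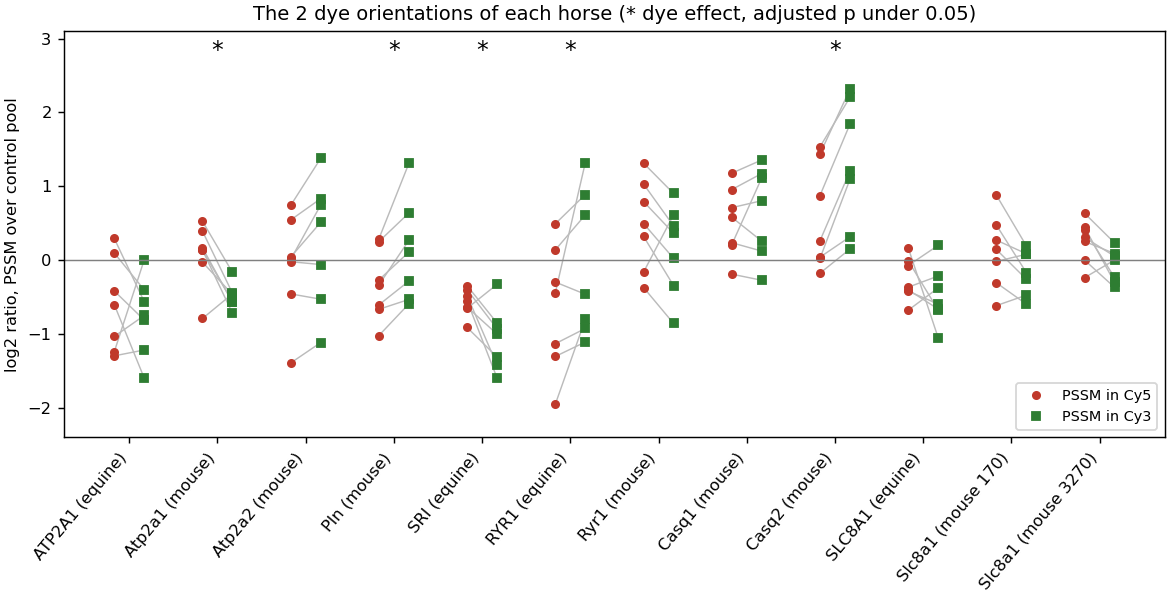
Log2 ratio of PSSM muscle over the control pool for each member probe, with PSSM muscle in Cy5 (red circles, left of each pair) and in Cy3 (green squares, right), a gray line joining the 2 microarrays of a horse. All 7 lines of Casq2 and of Pln run up from Cy5 to Cy3, and the asterisks mark the 5 probes with a dye effect.

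Over the equine probes as a whole, swapped microarrays expressed as PSSM over pool correlated within a horse at a median r of 0.479 (from -0.224 in horse 32 to 0.634 in horse 44), and 2 of the 7 values were negative. Without both of these horses (12 and 32) the mean log2 ratio was -0.71 for ATP2A1, -0.83 for SRI, -0.35 for SLC8A1 and -0.01 for RYR1. Between 321 and 376 equine probes had a value on a microarray. The 12 member probes had a value on all 14.

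The equine probes whose ratios lay nearest to those of each equine member, by the root mean square difference in log2 ratio over shared microarrays, were counted among 340 others. For SRI they were both probes of the mitochondrial gene ND5 at positions 1760 (0.19) and 852 (0.23), followed by NFKBIB (0.23), where the median distance was 0.95. For SLC8A1 they were Mrps33 (0.28), OPRM1 (0.31) and the mitochondrial leucine transfer RNA TRNL1 (0.31), beside a median of 0.71. For ATP2A1 they were TNFRSF4 (0.44, over 13 microarrays), PDE4B (0.48) and Mrpl15 (0.50), beside a median of 0.95. The nearest probes of RYR1, the histidine transfer RNA TRNH, TREM1 and Phkb, lay at 0.72, 0.81 and 0.81. Its median distance to all probes was larger too, at 1.12. These distances include the mean ratio against the pool, by which ATP2A1, SRI and SLC8A1 were chosen. Nearness is therefore in part a likeness of mean ratio and is no sign of shared regulation.

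Other genes of the pathway were taken from a list of 49 genes by role, of which 45 had a probe and 34 could be tested through 39 probes (37 mouse and 2 equine). Their median log2 ratio was -0.0014. After adjustment over all probes of the kind, 1 fell and 1 rose, beside the shares of all mouse probes given above. At an unadjusted p under 0.05 there were 6 lower and 4 higher. Nothing is read from these unadjusted counts, because the share of all probes at that threshold was not computed. Ppp3r1, the calcium-binding regulatory subunit of calcineurin, fell to a mean log2 ratio of -1.54 ± 0.38 in PSSM muscle, 2.91-fold lower than in the pool (adjusted p = 0.000768). It was between -2.20 in horse 44 and -1.03 in horse 42, so all 7 horses were below 0. Its dye effect was 0.88 ± 0.32 (adjusted p = 0.000913), with a mean of -1.10 in Cy5 and -1.98 in Cy3. The other calcineurin probes did not pass. Of the catalytic subunits, Ppp3ca had a mean of -0.04 ± 0.64, and Ppp3cb had -1.29 ± 1.20 at position 1477 and 0.23 ± 0.27 at position 254. At position 1477 horse 32 had a mean of -3.88, the mean without it was -0.86, and the probe was called lower without this horse, from the Cy3 microarrays alone and with the arithmetic mean of ratios. The SD over horses was 2.34 with PSSM muscle in Cy5 and 0.47 with it in Cy3, so the low value of horse 32 comes mainly from its Cy5 microarray.

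Atp2b1, a calcium pump of the cell membrane, rose by 0.50 ± 0.22 on the log2 scale (ratio 1.42, adjusted p = 0.0304), with all 7 horses above 0, from 0.25 in horse 42 to 0.88 in horse 44. It had a value on 12 microarrays, and its dye effect was 0.54 ± 0.23 (n = 5 horses, adjusted p = 0.0166 in limma). The mean was 0.78 with PSSM muscle in Cy5 and 0.31 with it in Cy3. The Cy3 microarrays alone gave an adjusted p of 0.0676 in limma. Leaving out horse 12 gave 0.0766, leaving out horse 38 gave 0.0997, and the methods' t-test gave 0.0771, so the call rests on these choices. In every other role group 0 probes passed. Among proteins of the SR lumen and membrane, the chaperone calnexin (Canx) had 0.62 ± 0.41 and the histidine-rich calcium-binding protein (Hrc) -0.42 ± 0.37. Among partners of the triad, the junction of transverse tubule and SR, junctophilin Jph1 had -0.74 ± 0.52 (n = 6 horses) and the ryanodine receptor ligand Fkbp1b 0.27 ± 0.22. The cardiac ryanodine receptor Ryr2 had 0.24 ± 0.46. Of the subunits of the voltage sensor channel, Cacnb1 had 0.19 ± 0.33 and Cacna2d1 -0.13 ± 0.22. For store-operated entry, Stim1 had -0.10 ± 0.19 and Orai1 0.05 ± 0.13, and the exchanger Slc8a3 lay at -0.0003 ± 0.31.

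A dye effect passed in 13 of 34 probes of the list, beside 38.5% of mouse and 55% of equine probes, and a difference between horses in 3 of 28, beside 12.7% and 30.1%, so neither count stands out from the background. The widest dye difference among these probes, picked out after the values were seen, was that of Ppp3ca, which averaged -0.77 in Cy5 and 0.70 in Cy3 (difference -1.46 ± 0.39, 7 of 7 horses, adjusted p = 0.000184 in limma). Calm3, a calmodulin gene, followed at position 633 (difference -1.39 ± 0.98, 6 of 7 horses, adjusted p = 0.00582). Jph2, another junctophilin, averaged -0.65 in Cy5 and 0.67 in Cy3 (difference -1.31 ± 0.40, 7 of 7 horses, adjusted p = 0.000263), while the mean of both orientations was 0.01 ± 0.11.

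**Figure D4:**
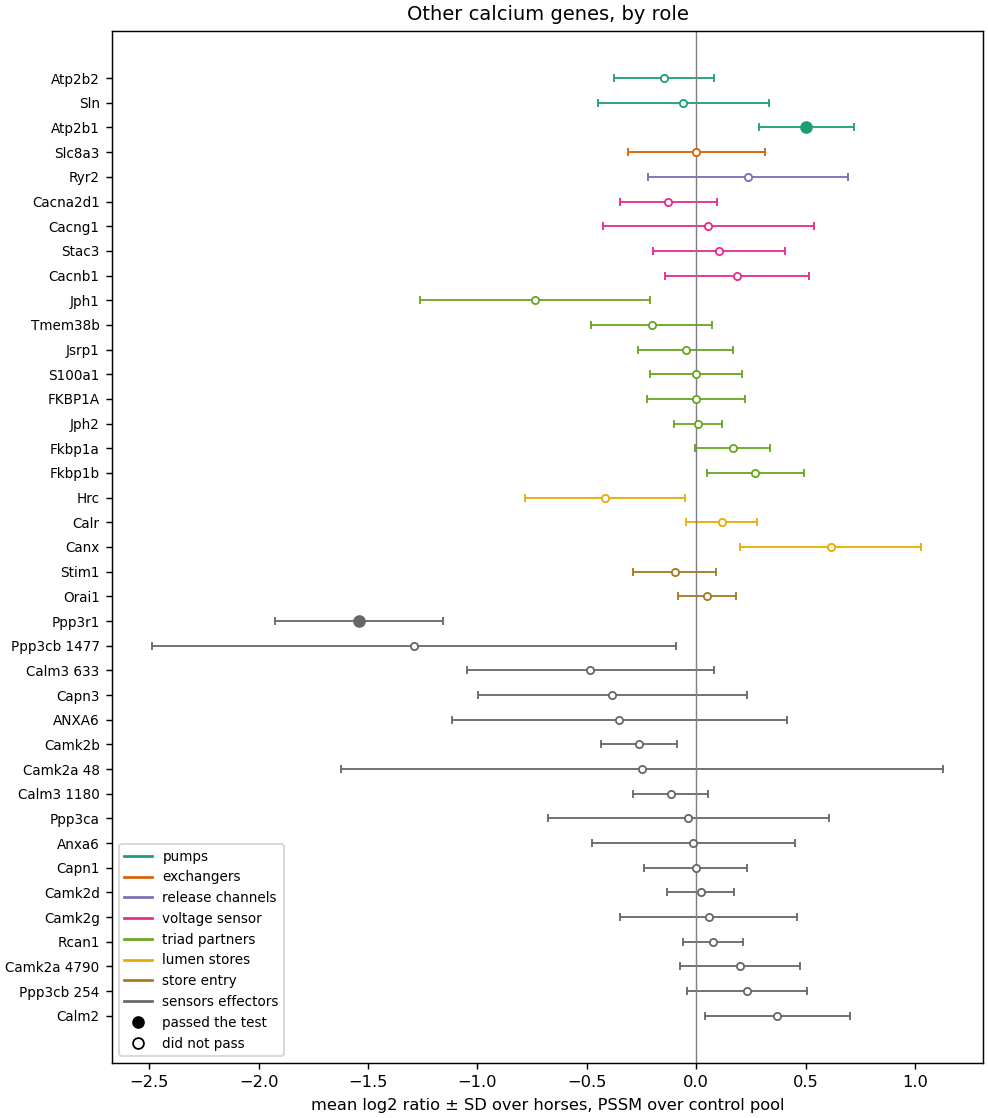
Mean log2 ratio with SD over horses, PSSM muscle over control pool, for the 39 tested probes of other calcium genes, colored by role, with filled points for probes that passed the test. Ppp3r1 (-1.54) and Atp2b1 (0.50) are the filled points, and Ppp3cb is shown by 2 probes at -1.29 and 0.23.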

How the data were processed

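The deposited values are ratios on a natural log scale. The authors quantified the scanned spots in GenePix Pro and applied a Lowess normalization in GeneSpring. The table stops at ratios of 0.01 and 100, from which the base of the logarithm was recognized. The numerator of the table is not given in the sources used here. It was taken as Cy5 over Cy3 only because this gives the ratios the direction that the study states. Background correction, the rule behind empty cells and scan dates are likewise not given in the sources used here.

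The sign was reversed where PSSM muscle was in Cy3, the log base was changed to 2, and the pair of a horse was averaged. The moderated test of limma 3.58.1 (R 4.3.3) set these means against 0 in probes read in 5 or more horses, with Benjamini-Hochberg adjustment over 361 equine and over 13067 mouse probes apart, called at an adjusted p under 0.05. Dye effects used the difference within a horse, and the F test over horses used probes with all 14 values. Exact permutations of 7 horses (5040) gave the p of correlations. The lowest control signal was read from linear ratios that are whole once multiplied by 10 (within 0.0002). The lowest PSSM signal was read from the inverse ratios in the same way. Equine probes were named from the study's probe list. Mouse probes were named from the platform annotation (13430 with a symbol, 10679 without), and their binding to horse RNA was not tested.

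Members and gene lists were chosen with earlier results of these data known. Every probe of a member is named, as are the other calcium genes that passed, or the 2 with the largest mean in a role group where 0 passed, and the 3 nearest equine probes. The tests were also run on simulated data. There all probes had the same spread between swapped microarrays, unlike the real probes, so nothing is read from that check. Alternatives were other tests, each dye orientation, centering, filters, adjustment, low signals and leaving out each horse. The F test over horses, leaving out the Cy5 microarray of horse 54, and leaving out horses 12 and 32 together were chosen after seeing the data. The correlations with the fiber lists were not among the planned tests either. Python 3.11.15 with pandas 2.3.3 and matplotlib 3.10.9 did the rest.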

Additional observations from a re-analysis of the deposited data

Results flagged for a closer look

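In 5 of the 51 probes examined, 1 horse lay apart from the others by Dixon's criterion, which marks about 5% of groups by chance. Equine SLC8A1 was 0.064 in horse 5, with the next horse at -0.29, and its mean without horse 5 was -0.44. Ppp3cb at position 1477 was -3.88 in horse 32, where the next horse was at -1.33, and Camk2a at position 48 was -3.18 in the same horse, where the next was at -0.37. With PSSM muscle in Cy5 and in Cy3, the SD over horses was 2.34 and 0.47 for Ppp3cb, and 3.11 and 0.53 for Camk2a. Both low means of horse 32 thus come mainly from its Cy5 microarray. The PSSM signal appeared to sit at its lowest level in 1 value of Ppp3cb and 2 of Camk2a. Atp2b2 was -0.64 in horse 44, with the next horse at -0.15. Slc8a3 was 0.68 in horse 54, with the next horse at 0.00.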

How the results depend on the processing

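The mean log2 ratios of the 12 member probes were recomputed under 252 combinations of probe and setting. They differed by more than 1 SD between horses in 4 of these, which are SRI and mouse Atp2a1 from either dye orientation alone, and the sign of a called member was kept in all. The equine members called lower were 3, and 1 (SRI) from Cy5 microarrays alone or with adjustment over equine and mouse probes together. They were 2 to 3 when 1 horse was left out. The mouse members called lower were 0, and 1 (Atp2a1) from Cy3 microarrays alone. The mouse members called higher were 0, but 2 (Casq1 and Casq2) with the horse as a random block or from Cy3 microarrays alone, 1 (Casq2) with centering on equine probes or with only probes that have all 14 values, and 0 to 1 (Casq1, without horse 5) when 1 horse was left out. Centering on equine probes raised the median log2 ratio of all probes by 0.124.

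The other calcium genes called were 2. They were 6 with the random block, 9 from Cy3 and 7 from Cy5 microarrays alone, 5 with centering on equine probes, 4 with the arithmetic mean of ratios, 1 with the methods' t-test, with a minimum of 2 horses or without horses 12 and 32, and 1 to 3 when 1 horse was left out (1 without horse 12 or 38). Ppp3r1 passed in all 21 alternatives and Atp2b1 in 14 of the 20 that gave it a value. Members with a dye effect were 5. They were 7 with either centering (Atp2a2 and Slc8a1 at position 3270 added), 1 (Casq2) without horses 12 and 32, and 3 to 6 when 1 horse was left out, with 3 without horse 42. Members that differed between horses were 6. They were 1 (Atp2a2) with no dye term and 4 to 6 when 1 horse was left out. The shares of all probes called under the alternatives were not computed, so no count in this section is read as a result about calcium genes. The cause of the changes between settings was not tested. Low signals limit the 2 mouse probes of Sri, which were left without a test.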
